A study of Bos taurus with 3 samples.

Results

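Some keratinocytes of the rumen epithelium carried several transcripts of *TM4SF1* together with *CLDN4*, while no transcript of *GJA1* or *DLK2* was counted in them. The rule took cells with at least 4 unique molecular identifiers (UMIs, the count of distinct transcript molecules) of *TM4SF1*, at least 1 UMI of *CLDN4* and 0 UMIs of both *GJA1* and *DLK2*. It found 735 of 20728 cells, which was 3.55% (exact Clopper-Pearson 95% interval 3.30 to 3.81%; this and the intervals that follow cover counting error only). They are called *TM4SF1*+ *CLDN4*+ cells below. The tissue was the ventral sac of the rumen from 3 adult Holstein dairy cows in lactation. Each cow gave 1 droplet library, and there was no treatment, genotype or time to compare, so every comparison below is between classes of cells taken from the same animals. The tissue had been stripped of muscle, digested with enzymes and depleted of dead cells, and the study kept only cells it judged epithelial.

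*TM4SF1* encodes a membrane-spanning surface protein of the L6 family that is known from migrating and wound-edge epithelial cells, and *CLDN4* encodes a claudin of the tight junction. *AREG* encodes amphiregulin, a ligand of the EGF receptor, and *FGFBP1* a carrier that frees fibroblast growth factors from the matrix. *GJA1* encodes connexin 43, which the study used to mark channel-gap-like spinous cells, and *DLK2* a Notch-like protein that it used to mark granule cells. The study also named a cluster of its channel-gap-like cells after *TM4SF1*. It gave *ZNF750*, *BST1* and *ATP6V1B1* among the genes uniquely high in that cluster. The rumen wall is a stratified keratinising epithelium in which basal cells divide and upper cells differentiate, and it absorbs the short-chain fatty acids made by microbes.

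The cows contributed very unequally. Cow 1 gave 40 of 3369 cells (1.19%, 0.850 to 1.61%), cow 2 gave 665 of 7401 (8.99%, 8.34 to 9.66%) and cow 3 gave 30 of 9958 (0.301%, 0.203 to 0.430%). Cow 2 therefore held 90.5% of the *TM4SF1*+ *CLDN4*+ cells, and the 3 intervals did not overlap. When each cell was thinned to 5000 UMIs, which left out 586, 228 and 704 shallower cells, the shares were 0.359%, 3.75% and 0.0756% in the same order. The order of the cows was also the same with a minimum of 2 *TM4SF1* UMIs (2.55%, 13.6% and 1.65%) and of 6 (0.475%, 6.57% and 0.0803%). Over all cells, *TM4SF1* stood at 0.552, 2.28 and 0.244 UMIs per 10000 UMIs in cows 1, 2 and 3, so the gene itself was highest in cow 2. With 1 library per cow, the animal and its library cannot be told apart.

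**Figure D1:**
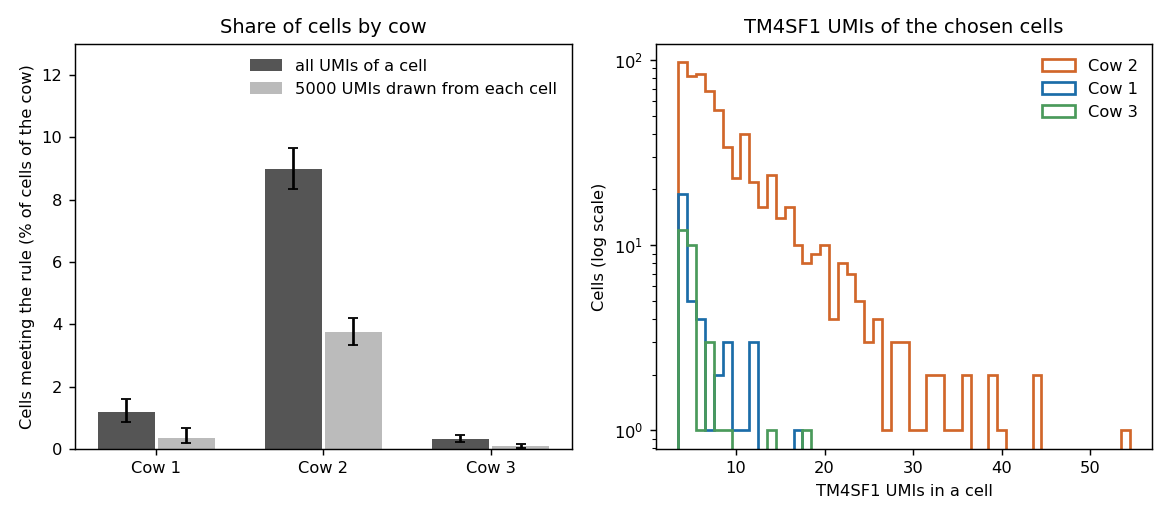
Left, share of each cow's cells (%) that met the rule, from all UMIs and after thinning each cell to 5000 UMIs, with exact 95% intervals. Right, number of chosen cells (log scale) by *TM4SF1* UMIs in the cell. Cow 2 reached 8.99% and up to 54 UMIs in a cell, against 1.19% and 17 in cow 1 and 0.301% and 18 in cow 3.

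The rule split a wider set. Of 2156 cells with at least 4 *TM4SF1* UMIs, 301 had neither *CLDN4*, *GJA1* nor *DLK2*, 599 had *CLDN4* and *DLK2*, and 277 had *CLDN4* and *GJA1* but no *DLK2*. Those 277 cells (43, 213 and 21 by cow) are called the *GJA1*+ counterpart. The main comparison cells were 7869 cells with 0 UMIs of *TM4SF1*, *GJA1* and *DLK2* (1061, 1147 and 5661 by cow), called *TM4SF1*-zero cells. A further 2328 cells had 1 to 3 *TM4SF1* UMIs and no *GJA1* or *DLK2*.

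The classes differed in depth, which touches every comparison below. The median cell of the *TM4SF1*+ *CLDN4*+ class held 14105, 16320 and 15092 UMIs in cows 1, 2 and 3, against 8563, 10161 and 9421 for the *TM4SF1*-zero cells and 20279, 20366 and 17323 for the *GJA1*+ counterpart. A threshold in UMIs favours deep cells and a zero favours shallow ones. The median mitochondrial share was 18.6%, 11.8% and 12.3% in the *TM4SF1*+ *CLDN4*+ cells and 18.6%, 10.6% and 12.5% in the *TM4SF1*-zero cells, so cow 1 was the highest in both. Across libraries, 70 of all cells shared a 16-base barcode, 2 of them chosen here. The authors had run a doublet caller, none was run again here, and 171 of the 735 cells held over 20000 UMIs. Markers of other cell types were low but not all absent. Of 8 fibroblast markers, 6 had 0 UMIs in these 735 cells (*COL1A1*, *COL1A2*, *COL3A1* and *DCN* among them), as had 6 of 11 endothelial markers (*PECAM1* and *CDH5* among them) and 5 of 7 smooth muscle and pericyte markers. Of 17 immune markers 4 were at 0, while *CD14* had 338 UMIs, *CD68* 92, *CD74* 28, *CD52* 22, *CD3E* 12 and *PTPRC* 3. The immune markers summed to 0.388, 0.442 and 0.222 UMIs per 10000 in cows 1, 2 and 3 against 0.359, 0.441 and 0.241 in the *TM4SF1*-zero cells, and *CD68* and *CD3D* were called higher in the chosen cells (edgeR adjusted p = 0.0016 and 0.031). Of the other markers counted, *S100B* had 52 UMIs and *VWF* 25, and neither was called. The part of these markers in the results was not tested.

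The genes that gave the class its name are described without a test, since they chose the cells or were named with them. *TM4SF1* had a median of 5, 8 and 5 UMIs per chosen cell in cows 1, 2 and 3. Summed over the class, it stood at 4.03, 5.90 and 3.86 UMIs per 10000, against 1.06, 1.33 and 1.12 in the cells with 1 to 3 UMIs. *CLDN4* stood at 3.18, 5.84 and 3.37 per 10000, against 0.795, 1.204 and 0.383 in the *TM4SF1*-zero cells. The rule asked for a *CLDN4* UMI in the chosen cells alone, so part of this gap was set in advance. In *TM4SF1*-zero cells with *CLDN4* the gene stood at 2.47, 2.64 and 1.45. *FGFBP1* was not part of the rule. It stood at 2.17, 4.69 and 3.95 per 10000, against 1.44, 1.37 and 1.71 in all *TM4SF1*-zero cells, with no overlap. *AREG* stood at 0.679, 0.432 and 0.244 per 10000, against 0.319, 0.123 and 0.0287, so each cow was higher in the chosen cells but the groups overlapped. Most of the chosen cells showed no *AREG* at all: it had 0 UMIs in 555 of 735, whereas *FGFBP1* had 0 in 102. In cow 2, 24.5% of the chosen cells had an *AREG* UMI (13.3% after thinning to 5000 UMIs), against 5.41% (3.82% thinned) of the *TM4SF1*-zero cells. *FGFBP1* had a UMI in 72.5%, 86.9% and 86.7% of the chosen cells of cows 1, 2 and 3, against 38.1%, 38.3% and 46.5% of the *TM4SF1*-zero cells. After thinning to 5000 UMIs this was 37.5%, 69.9% and 53.3% against 36.0%, 29.2% and 35.2%, so the classes were close in cow 1. The *GJA1*+ counterpart carried both genes at similar or higher levels, with 3.81, 5.85 and 5.38 per 10000 for *FGFBP1* and 2.31, 0.383 and 0.853 for *AREG*.

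**Figure D2:**
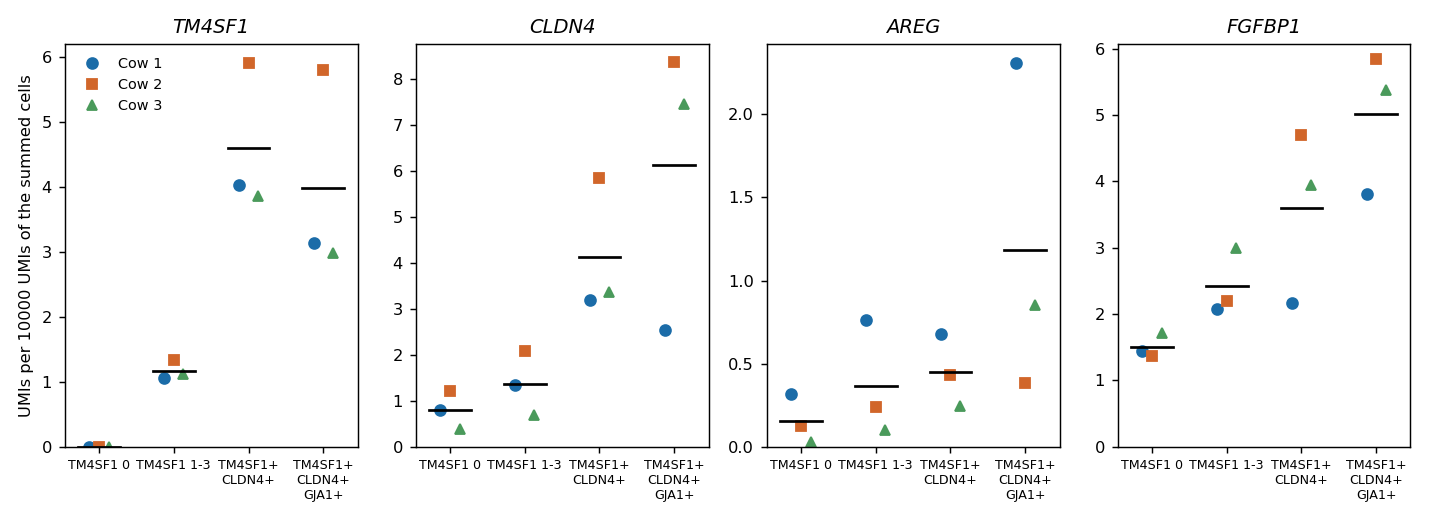
UMIs per 10000 UMIs of the summed cells for the 4 naming genes in the 4 cell classes. Each point is a cow and the bar is the mean of the 3 cows. *TM4SF1* and *CLDN4* were used to choose the cells, and *TM4SF1* is 0 by rule in the first class.

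Within cow 2, which had enough cells to divide, the other naming genes were highest in the chosen cells with the most *TM4SF1* UMIs. *CLDN4* went from 3.87 per 10000 in 97 cells with 4 *TM4SF1* UMIs through 4.64 (5 to 7 UMIs, 234 cells) and 6.26 (8 to 15 UMIs, 227 cells) to 8.59 in 107 cells with 16 or more. *AREG* went from 0.233 through 0.294 and 0.408 to 0.871 per 10000, and *FGFBP1* from 3.47 through 3.46 and 5.39 to 6.43. The median depth moved with them, from 14488 to 18671 UMIs, and its part in these levels was not tested. Just outside the threshold, 148 cells of cow 2 with 3 *TM4SF1* UMIs and *CLDN4* had 3.79 per 10000 of *CLDN4*, 0.456 of *AREG* and 3.13 of *FGFBP1*. Their *CLDN4* and *FGFBP1* were close to those of the cells with 4 UMIs just inside it, whereas the summed *AREG* was higher just outside it (exact Poisson 95% interval 0.371 to 0.554) than just inside (0.161 to 0.325). These intervals take UMIs as independent and leave out the spread between cells. In cow 2 *AREG* had 0 UMIs in 502 of 665 chosen cells and up to 18 in a cell. Whether *AREG* differed across the threshold was not tested.

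**Figure D3:**
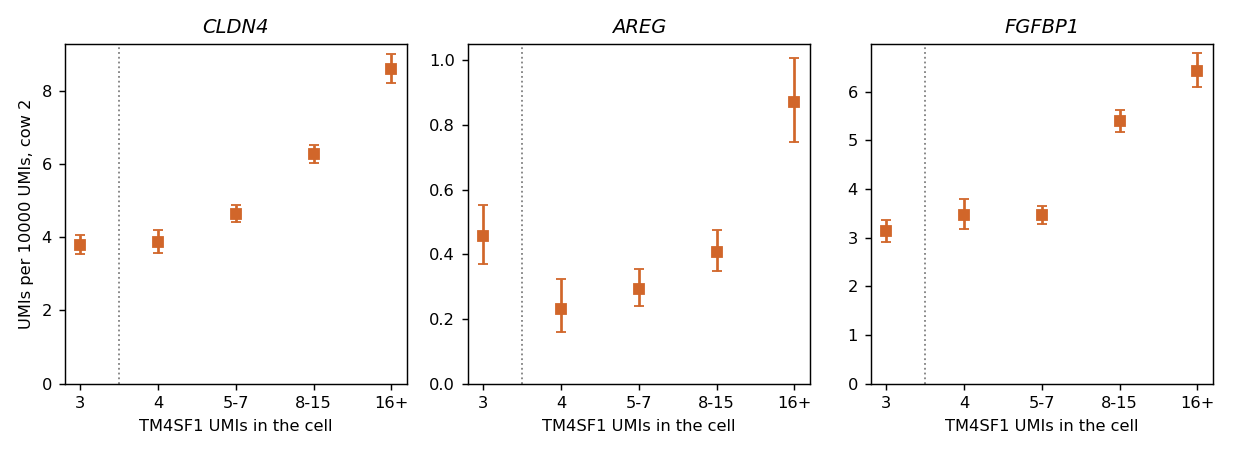
UMIs per 10000 UMIs of *CLDN4*, *AREG* and *FGFBP1* in cells of cow 2 grouped by *TM4SF1* UMIs, with exact Poisson 95% intervals on the counts. The dotted line is the threshold of the rule. *CLDN4* goes from 3.87 in cells with 4 *TM4SF1* UMIs to 8.59 in cells with 16 or more, and *AREG* from 0.233 to 0.871.

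The next question was which other genes set the *TM4SF1*+ *CLDN4*+ cells apart from *TM4SF1*-zero cells of the same cows. UMIs were summed per cow and class and tested with edgeR's quasi-likelihood test with the cow as a block. A gene was called at a Benjamini-Hochberg adjusted p under 0.05 and an absolute log2 fold change above 0.36. Of 10378 genes, 557 (5.37%) were higher in the *TM4SF1*+ *CLDN4*+ cells and 442 (4.26%) were lower, together 9.63%, and 412 and 369 of them moved the same way in all 3 cows. Among all 10378 tested genes, called or not, 1482 were higher and 2217 lower in all 3 cows. DESeq2 called 340 and 167, so 67.1% of its calls were higher against 55.8% of those of edgeR. Without cow 2, which left 2 animals, 100 genes were higher and 12 lower. Some differences were then as large but no longer called, as for *OVOL1* (2.64, adjusted p = 0.11, against 2.62 with all cows) and *MAP3K8* (2.39, adjusted p = 0.073, against 2.23). Others shrank and were no longer called, as for *TMEM171* (1.66 against 2.70), *ZNF750* (1.31 against 2.39), *SLC25A25* (0.67 against 1.96) and *PRDM1* (1.28 against 1.82). Matching each chosen cell to a *TM4SF1*-zero cell of near-equal depth left 161 higher and 23 lower, and against *TM4SF1*-zero cells that carried *CLDN4* there were 197 and 117. The match was incomplete in cow 2, where the matched cells had a median of 12741 UMIs against 16320.

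The immediate-early and stress genes, transcription factors and regulators that cells switch on within minutes of a stimulus, were the list with the most calls. Of 18 tested, 13 were higher and 0 lower, against 5.37% and 4.26% over all genes. The median log2 difference was 0.78 against -0.03 over all genes. *FOSB*, an AP-1 subunit, stood at 4.04, 3.92 and 1.89 UMIs per 10000 in the *TM4SF1*+ *CLDN4*+ cells of cows 1, 2 and 3 and at 1.85, 1.92 and 0.278 in the *TM4SF1*-zero cells. It was higher in each cow, by 1.49 ± 0.24 on the log2 scale (SE; adjusted p = 0.00022), though the lowest chosen sum lay within the range of the others. *NR4A1*, an orphan nuclear receptor, stood at 1.12, 0.574 and 0.577 against 0.493, 0.355 and 0.054, with no overlap (log2 difference 1.21 ± 0.22, adjusted p = 0.00084). *ATF3*, a stress-induced transcription factor, stood at 5.38, 6.26 and 2.33 against 2.85, 4.03 and 0.215 (1.41 ± 0.35, adjusted p = 0.012). *ATF3* was not called by DESeq2 (adjusted p = 0.26). *KLF2* was also called, but on 11 UMIs in the chosen cells. It passed the filter on low counts through the chosen cells and the *GJA1*+ counterpart, not the *TM4SF1*-zero cells. The remaining genes called were *KLF6*, *IER2*, *EGR1*, *KLF4*, *ZFP36*, *JUN*, *MCL1*, *HSPA1A* and *GADD45B*. *FOS*, *JUNB*, *JUND*, *BTG2* and *EGR3* did not pass. With depth-matched cells 14 of 17 were higher, without cow 2 it was 7 of 17, and DESeq2 called 8 of 18.

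The EGF receptor and MAP kinase genes moved in part. *HBEGF*, another EGF receptor ligand, stood at 0.242, 0.343 and 0.111 UMIs per 10000 against 0.110, 0.131 and 0.0195. It was higher in each cow, by 1.47 ± 0.14 on the log2 scale (adjusted p = 3.4e-07). *ERRFI1*, a feedback inhibitor of the EGF receptor, stood at 0.841, 1.19 and 0.222 against 0.349, 0.678 and 0.0673 (1.01 ± 0.12, adjusted p = 7.1e-06). These were the 2 of 8 tested genes of that list that passed, against 5.37% higher over all genes. Without cow 2 only *ERRFI1* passed (*HBEGF* 1.51, adjusted p = 0.10). *EGFR* itself stood at 0.356, 0.113 and 0.244 against 0.325, 0.181 and 0.221 and was not called (adjusted p = 0.14).

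Of 18 MAP kinase feedback and response genes, 6 were higher and 4 lower, against 5.37% and 4.26% over all genes. *DUSP1*, a phosphatase that switches MAP kinases off, stood at 6.50, 4.73 and 4.97 per 10000 against 2.51, 2.98 and 0.759, with no overlap between the classes (log2 difference 1.48 ± 0.26, adjusted p = 0.00055). *FOSL1*, another AP-1 subunit, rested on 95 UMIs and stood at 0.0647, 0.0790 and 0.0444 against 0.0169, 0.0158 and 0.00248 (2.35 ± 0.35, adjusted p = 0.00012). *EMP1*, *PLAUR*, *DUSP6* and *IER3* were the others that rose. The 4 that fell were *SPRY1*, *SPRY2* and *SPRED1*, which encode inhibitors of receptor tyrosine kinase signalling, and the transcription factor *ETV5*. *ETV5* stood at 0.129, 0.0169 and 0.0222 against 0.150, 0.0691 and 0.108 (log2 difference -1.71 ± 0.31, adjusted p = 0.00084). With depth-matched cells edgeR called 6 of 15 higher and 0 lower (3 lower at an unadjusted p under 0.05), and without cow 2 it was 2 of 13 higher and 0 lower (1 lower at an unadjusted p under 0.05). DESeq2 called 4 higher and 1 lower.

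Among the tight junction genes other than *CLDN4*, 3 of 16 tested were higher and 1 lower, against 5.37% and 4.26% over all genes, so the count lower was near the share over all genes. *CLDN1*, a claudin of stratified epithelia, stood at 0.582, 0.436 and 0.177 UMIs per 10000 against 0.269, 0.119 and 0.0313. It was higher in each cow (log2 difference 1.80 ± 0.26, adjusted p = 7.9e-05), with overlap between cows, and was not called by DESeq2 (adjusted p = 0.075) or without cow 2 (adjusted p = 0.24). *CLDN3* stood at 0.210, 0.208 and 0.0222 against 0.0409, 0.0316 and 0.0175 (2.43 ± 0.28, adjusted p = 4.3e-06), and in cow 3 the classes were close. *PARD6B*, a cell polarity gene, stood at 0.275, 0.194 and 0.155 against 0.123, 0.0982 and 0.0558, with no overlap (1.06 ± 0.16, adjusted p = 0.00018). Without cow 2, edgeR called 0 of 11 (4 were higher at an unadjusted p under 0.05), and the 3 higher genes stayed called with depth-matched cells. The gene that fell was *MPDZ*, a scaffold of cell junctions, at 0, 0.000887 and 0 UMIs per 10000 against 0.0189, 0.00999 and 0.0142 (adjusted p = 0.018). It rested on 1 UMI in the *TM4SF1*+ *CLDN4*+ cells, passed the filter on low counts through the *TM4SF1*-zero cells, had no adjusted p in DESeq2 and was too low to be fitted with depth-matched cells or without cow 2.

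Of 10 tested genes of terminal keratinocyte differentiation, 5 rose and 0 fell, against 5.37% and 4.26% over all genes. The median log2 difference was 1.88, and those that rose were at low levels. *OVOL1*, a repressor that takes keratinocytes out of proliferation, stood at 0.0808, 0.165 and 0.155 UMIs per 10000 against 0.0269, 0.0233 and 0.0124, with no overlap (log2 difference 2.62 ± 0.26, adjusted p = 6.1e-07). *ZNF750*, an epidermal differentiation factor, stood at 0.0647, 0.175 and 0.133 against 0.0518, 0.0208 and 0.0306 (2.39 ± 0.27, adjusted p = 3.3e-06), and the difference was small in cow 1. *PRDM1*, a transcription factor of the upper epidermis, stood at 0.145, 0.375 and 0.0887 against 0.0737, 0.124 and 0.0305 (1.82 ± 0.20, adjusted p = 2.1e-06). The other genes called were *GRHL3*, on 18 UMIs in the chosen cells, and the transglutaminase *TGM3*, on 45. *GRHL3* passed the filter on low counts through the chosen cells and the *GJA1*+ counterpart, not the *TM4SF1*-zero cells. The structural genes *KRT10*, *EVPL* and *PPL* were not called. Without cow 2, edgeR called 0 of 9 (3 were higher at an unadjusted p under 0.05), with a median of 0.58. With depth-matched cells 3 of 9 were higher, and DESeq2 with all cows called 4 of 10.

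Basal cell genes were lower for 3 of 17 and higher for 0, against 4.26% and 5.37% over all genes. The list as a whole hardly moved, with a median log2 difference of -0.08 against -0.03 over all genes. It summed to 114, 145 and 207 UMIs per 10000 in cows 1, 2 and 3 against 127, 133 and 184. *DLL1*, a Notch ligand, stood at 0.145, 0.242 and 0.155 UMIs per 10000 against 0.512, 0.723 and 0.354, with no overlap between the classes (log2 difference -1.59 ± 0.14, adjusted p = 1.4e-07). *TP63*, the basal keratinocyte transcription factor, stood at 0.776, 0.283 and 0.399 against 1.21, 0.460 and 0.591 (-0.64 ± 0.12, adjusted p = 0.00096). *COL17A1*, a hemidesmosome collagen, stood at 5.90, 3.796 and 3.28 against 7.22, 5.51 and 4.62 (-0.45 ± 0.12, adjusted p = 0.014). All 3 were lower in each cow, and only *DLL1* stayed called with depth-matched cells. Without cow 2, 1 of 17 was called lower. The keratins of basal cells did not follow. *KRT5* stood at 32.9, 44.8 and 80.8 against 39.6, 37.1 and 69.6 (adjusted p = 0.79), and *KRT14* at 18.9, 28.9 and 66.8 against 19.0, 25.1 and 47.0 (adjusted p = 0.51).

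**Figure D4:**
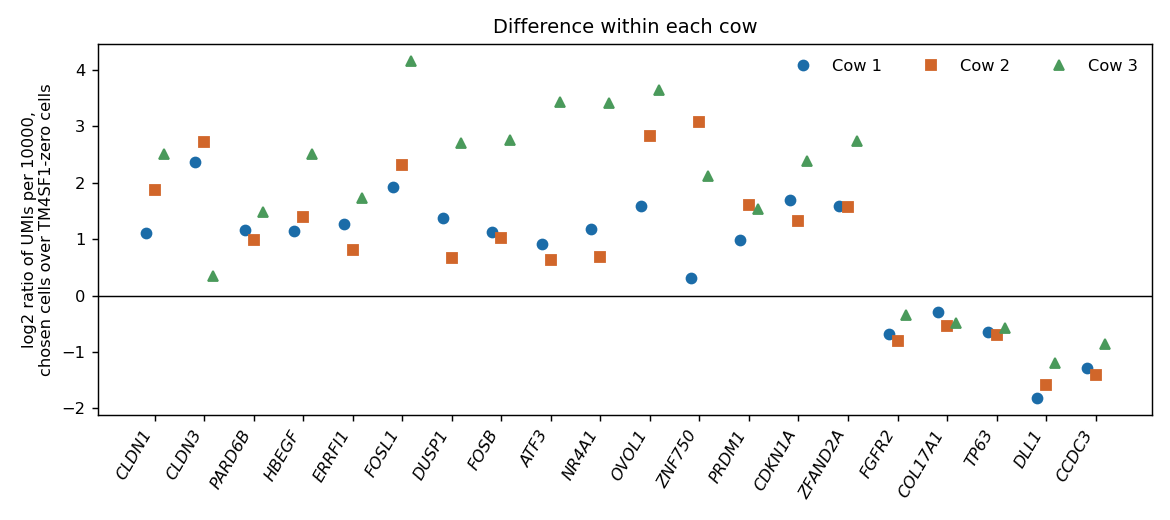
log2 ratio of UMIs per 10000 in the chosen cells over the *TM4SF1*-zero cells of the same cow, for 20 called genes picked after their values were seen because each had UMIs in both classes of every cow. Points are cows. Genes from *CLDN1* to *ZFAND2A* lie above 0 in each cow and genes from *FGFR2* to *CCDC3* below 0, and the cow 3 points of low genes rest on few UMIs.

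The genes with the largest differences repeated some of these groups and added others. *MAP3K8*, a kinase that activates the ERK pathway, stood at 0.162, 0.456 and 0.0444 UMIs per 10000 against 0.0359, 0.112 and 0.0069 (log2 difference 2.23 ± 0.17, adjusted p = 1.8e-08). *CDKN1A*, the cell cycle inhibitor p21, stood at 1.49, 2.49 and 0.976 against 0.459, 1.00 and 0.187 (1.72 ± 0.24, adjusted p = 4.5e-05). *CDKN1C*, the related inhibitor p57, went the opposite way, at 0.0647, 0.0541 and 0 against 0.341, 0.473 and 0.304 (-3.09 ± 0.18, adjusted p = 2.3e-10). The difference was -2.04 with depth-matched cells, where it was still called. *ZFAND2A*, which is induced by proteotoxic stress, stood at 1.08, 0.491 and 0.421 against 0.359, 0.166 and 0.0632, with no overlap (1.75 ± 0.13, adjusted p = 1.1e-08). *TMEM171*, *SLC25A25*, *PLAU* (urokinase) and *TRIB1* completed the 12 largest increases by the naming rule. *AOX1*, aldehyde oxidase, stood at 0.0162, 0.0266 and 0 against 0.305, 0.153 and 0.0823 (-2.66 ± 0.30, adjusted p = 3.1e-06), but with depth-matched cells the difference was -1.31 and was not called (adjusted p = 0.12). *GRIA3*, a glutamate receptor subunit, fell as well. The other genes of that set that fell (*ACKR4*, *MYRFL*, *GGT7*, *ARL15*, *IRX6*, *MDM1*, *GPRC5B* and *MMP13*) had 1 to 7 UMIs in the chosen cells. They passed the filter on low counts through the other classes. All but *MMP13* had 0 UMIs in the chosen cells of cows 1 and 3. Those sums were small (618565 and 450931 UMIs), so at these levels a 0 there, and the same direction in all cows, carries little weight. Of the 83 named genes called in this comparison, 10 stayed called under each of 3 alternatives, leaving out cow 2, depth matching and DESeq2. Genes too low to be fitted count as not called there, since 66 of the 83 were fitted without cow 2 and 69 with depth-matched cells. They were *CDKN1A*, *ZFAND2A*, *FOSB*, *NR4A1*, *DUSP1*, *ERRFI1* and *CYP26A1*, which were higher, and *CDKN1C*, *DLL1* and *CCDC3*, which were lower. Of those higher, edgeR called only *ERRFI1* higher than in the *GJA1*+ counterpart as well. *CDKN1A*, *NR4A1* and *CYP26A1* were not called there (adjusted p = 0.99, 0.39 and 0.35), nor were *FOSB* and *DUSP1*. *ZFAND2A* was called lower (log2 difference -0.59, adjusted p = 0.0040), though not without cow 2. *MAP3K8*, *TMEM171*, *TRIB1*, *CLDN1*, *SLC25A25*, *PRDM1* and *PLAU* were also not called against the counterpart.

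Of 19 tested chemokine and NF-κB genes, 8 were called higher and 0 lower, against 5.37% and 4.26% over all genes. *CCL20*, a chemokine that attracts lymphocytes and dendritic cells, stood at 0, 1.53 and 0 UMIs per 10000 in the *TM4SF1*+ *CLDN4*+ cells against 0.0857, 0.230 and 0.0218 in the *TM4SF1*-zero cells, so it was higher in cow 2 alone and at 0 in the other cows. *IL6* stood at 0, 0.206 and 0 against 0.0169, 0.0716 and 0.00354, with the same split. *TNFAIP3*, a brake on NF-κB, stood at 0.0970, 0.762 and 0.133 against 0.0966, 0.297 and 0.0347 (log2 difference 1.28 ± 0.14, adjusted p = 1.9e-06), and was level in cow 1. Without cow 2, edgeR called 0 of 15 (2 were higher at an unadjusted p under 0.05). DESeq2 called 3 of 19 and turned the direction of *CCL20*, *CXCL2* and *GRO1*.

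Of 20 genes of G2 and mitosis, 9 were higher and 0 lower, against 5.37% and 4.26% over all genes, but not with depth-matched cells. *UBE2C*, which drives exit from mitosis, stood at 0.533, 0.199 and 3.08 UMIs per 10000 against 0.241, 0.156 and 0.655 (log2 difference 1.13 ± 0.30, adjusted p = 0.019). *AURKA*, a spindle kinase, stood at 0.275, 0.0639 and 0.532 against 0.0966, 0.0341 and 0.167 (1.22 ± 0.29, adjusted p = 0.0077). Both were higher in each cow, with overlap between cows. With depth-matched cells edgeR called 0 of 20 (0 also at an unadjusted p under 0.05), without cow 2 it called 11 of 20, and DESeq2 called 1. Of 20 S-phase genes, *UHRF1* and *TYMS* were called higher and 0 lower, a count near the 5.37% over all genes. With depth-matched cells and without cow 2, edgeR called 0 of 20 in each (1 higher at an unadjusted p under 0.05 in each, and 1 lower without cow 2), and DESeq2 called 1. The median log2 difference of the list went from 0.30 to -0.17 without cow 2, and its summed level in cow 3 was 7.30 UMIs per 10000 against 8.16.

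Of 22 tested genes of short-chain fatty acid transport and metabolism, 1 was higher than in the *TM4SF1*-zero cells and 0 were lower, against 5.37% and 4.26% over all genes. It was *BDH1*, a ketone body dehydrogenase, at 1.83, 2.17 and 2.22 UMIs per 10000 against 1.77, 1.50 and 1.38 (log2 difference 0.44 ± 0.11, adjusted p = 0.012). The call was lost with depth-matched cells (0.13, adjusted p = 0.73) and without cow 2 (0.39, adjusted p = 0.34). *SLC16A1*, the monocarboxylate transporter MCT1, stood at 4.80, 3.81 and 5.28 against 4.21, 2.84 and 4.20 (adjusted p = 0.098).

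The *GJA1*+ counterpart carried *TM4SF1* and *CLDN4* as well, and the comparison with it asked what went with the connexin. Of the same 10378 genes, 555 (5.35%) were higher in the *TM4SF1*+ *CLDN4*+ cells lacking *GJA1* and 644 (6.21%) were lower, together 11.6%. The same way in all 3 cows were 465 and 589. Among all tested genes, called or not, 2085 were higher and 1927 lower in all 3 cows. Without cow 2, 193 and 244 were called. Of the 49 named genes called here, 28 stayed called under each of the same 3 alternatives (45 were fitted without cow 2 and 48 with depth-matched cells). The comparison shares its *TM4SF1*+ *CLDN4*+ sums with the one above. Counts of each list against the counterpart are to be read beside 5.35% higher and 6.21% lower over all genes.

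Genes of the study's channel-gap-like spinous cells, a list the study drew from these same cells, were lower in 12 of 15 and higher in 0. *GSTA1*, a glutathione transferase, stood at 0.323, 0.758 and 4.55 UMIs per 10000 in the *TM4SF1*+ *CLDN4*+ cells against 6.14, 7.46 and 23.8 in the counterpart (log2 difference -3.04, adjusted p = 8.7e-08). *FABP4*, a fatty acid binding protein, stood at 0.178, 1.17 and 0.222 against 4.25, 2.79 and 5.07, with no overlap (-2.42, adjusted p = 8.4e-05). *TMEM79*, a gene of the epidermal barrier, stood at 0.323, 0.412 and 0.466 against 1.58, 1.26 and 2.65 (-1.83 ± 0.17, adjusted p = 8.7e-08). In the *TM4SF1*-zero cells *TMEM79* stood at 0.334, 0.246 and 0.250.

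The 12 largest decreases by the naming rule included *BPIFA2C* and *GJB2*. The study named a channel-gap-like cluster of these same cells after *BPIFA2C*. *GJA1* marked those clusters and also split the classes here, so part of the gap in *BPIFA2C* was set in advance. *BPIFA2C*, which encodes a secreted surface protein, stood at 0.275, 0.0523 and 0.0444 per 10000 against 10.3, 5.46 and 35.4 (log2 difference -7.19 ± 0.70, adjusted p = 1.9e-07). *GJB2*, connexin 26, stood at 0.0162, 0.00621 and 0.0222 against 1.07, 0.449 and 7.06 (-6.64 ± 0.36, adjusted p = 2.5e-11), on 9 UMIs in the *TM4SF1*+ *CLDN4*+ cells. It passed the filter on low counts through the counterpart, as did *A2ML1*, *CALML5*, *SLURP1* and *TGM1*. *KRT6B*, *S100A9*, *WFDC18*, *CALML5*, *SLURP1*, *PHGR1*, *RBP2*, *TGM1*, *A2ML1* and *MAL* completed the 12 largest decreases, with *MAL* on 1 UMI, *A2ML1* on 2, *CALML5* and *SLURP1* on 7 each, *PHGR1* on 20, *TGM1* on 24 and *RBP2* on 36 in the *TM4SF1*+ *CLDN4*+ cells. *KRT6B* stood at 43.2 in the 21 counterpart cells of cow 3 against 0.146 and 1.07 in those of cows 1 and 2, so that sum was far above the others.

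Of 10 terminal differentiation genes, 6 were lower than in the counterpart, against 6.21% over all genes. Among them was *ZNF750*, at 0.0647, 0.175 and 0.133 against 0.417, 0.608 and 0.379 (log2 difference -1.70 ± 0.22, adjusted p = 1.2e-05). *OVOL1* stood at 0.0808, 0.165 and 0.155 against 0.147, 0.399 and 0.237 (-1.14, adjusted p = 0.00089), but was not called by DESeq2 (adjusted p = 0.078) or without cow 2 (-0.68, adjusted p = 0.67). In each cow the levels of both genes lay between those of the *TM4SF1*-zero cells and the counterpart. Without cow 2, 3 of 9 genes of the list were called lower. Of 10 desmosome genes, 6 were lower (*PKP1*, *DSC2*, *JUP*, *PERP*, *DSP* and *DSG3*), with *PKP1* at 0.275, 0.227 and 0.399 against 0.586, 0.605 and 1.54, with no overlap (-1.41 ± 0.18, adjusted p = 1.1e-05). Of 16 tight junction genes, *TJP3*, *CGN*, *CLDN3* and *PARD6B* were lower. *CLDN3* did not keep its direction without cow 2 and was not called with depth-matched cells (adjusted p = 0.14) or by DESeq2 (adjusted p = 0.45). *PARD6B* was not called with depth-matched cells (adjusted p = 0.059) or without cow 2, where its log2 difference was -0.34 (adjusted p = 0.74).

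Of 22 tested short-chain fatty acid genes, 9 were lower in the cells lacking *GJA1* and 0 higher, against 6.21% and 5.35% over all genes. *SLC16A1* stood at 4.80, 3.81 and 5.28 per 10000 against 9.18, 5.05 and 6.33, lower in each cow with overlap between cows (log2 difference -0.58 ± 0.12, adjusted p = 0.0023). Also among those lower were *BDH1*, *BSG*, *SLC4A9*, *SLC9A2*, *PCCA* and *PCCB*. With depth-matched cells 7 of 21 were lower and 1 was higher, and without cow 2 it was 6 of 21 lower.

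Among the genes higher than in the counterpart, *FGFR2*, a receptor of fibroblast growth factors, stood at 1.76, 1.31 and 1.02 per 10000 against 0.620, 0.429 and 0.261, with no overlap (log2 difference 1.62 ± 0.14, adjusted p = 6.3e-08), although it was lower than in the *TM4SF1*-zero cells (2.82, 2.28 and 1.29). *PTHLH*, parathyroid hormone-related protein, stood at 0.323, 0.135 and 0.222 against 0, 0.0261 and 0.0237 (2.83 ± 0.48, adjusted p = 0.00026). The counterpart held 13 UMIs of it, and without cow 2 the difference was 5.07. *THBS1*, thrombospondin, stood at 0.792, 0.224 and 0.0444 against 0.101, 0.0305 and 0.0237 (2.72 ± 0.37, adjusted p = 1.7e-05).

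*EGFR* (0.356, 0.113 and 0.244 against 0.113, 0.0414 and 0.0237), *HBEGF* and *ERRFI1* were higher, which was 3 of 8 tested, against 5.35% over all genes. *HBEGF* and *ERRFI1* were not called by DESeq2 (adjusted p = 0.15 for each) or without cow 2 (0.63 and 0.14), and *ERRFI1* was not called with depth-matched cells (adjusted p = 0.0997). Of 18 MAP kinase genes, 8 were higher and 0 lower, *SPRY1*, *SPRY2* and *SPRED1* among them, which had been lower than in the *TM4SF1*-zero cells. DESeq2 and the depth-matched cells each called 3 of them higher, and 2 were called without cow 2. Of 20 genes of G2 and mitosis, 5 were higher (*AURKB*, *TOP2A*, *CENPF*, *TPX2* and *BIRC5*), and without cow 2 it was 17 of 20. Summed over these genes, the level was 13.01, 2.30 and 23.77 UMIs per 10000 in cows 1, 2 and 3 against 0.687, 2.76 and 4.19. The sum was thus higher in cows 1 and 3 but lower in cow 2, which held most of the chosen cells. Of 18 immediate-early genes, 6 were higher, but with depth-matched cells 1 of 18 was. *FOSB* and *DUSP1*, at 4.04, 3.92 and 1.89 and at 6.50, 4.73 and 4.97 per 10000, were not called against the counterpart (2.41, 3.22 and 2.01 with adjusted p = 0.49, and 5.16, 6.51 and 6.92 with adjusted p = 0.57). Of 19 chemokine and NF-κB genes, 6 were higher (*CXCL2*, *IL6*, *CXCL3*, *ICAM1*, *BIRC3* and *IL1A*) and 3 lower (*IL36A*, *S100A9* and *S100A8*). The list summed to 10.1, 16.02 and 5.61 UMIs per 10000 against 23.2, 19.5 and 98.2, lower in each cow. Its median log2 difference was 0.44, higher, against 0.04 over all genes. *S100A9* alone stood at 0.873, 0.539 and 0.333 against 4.14, 2.03 and 36.1. *CXCL3*, a chemokine for neutrophils, stood at 0.129, 1.39 and 0.266 against 0.0338, 0.231 and 0.0474 (2.56 ± 0.21, adjusted p = 2.3e-08), and was not called without cow 2 (2.25, adjusted p = 0.082). *PRAG1*, *EBF4*, *CCDC3*, *RND1*, *PDGFA*, *GLIPR1*, *RCAN2* and *CDH11* completed the 12 largest increases over the counterpart. Against the *TM4SF1*-zero cells edgeR called *CCDC3*, *PDGFA*, *GLIPR1*, *CDH11* and *THBS1* lower (log2 differences from -1.52 to -0.78). Of those, only *CCDC3* and *GLIPR1* stayed called with depth-matched cells. *GLIPR1* and *THBS1* were not lower in cow 1 (0.242 against 0.232 and 0.792 against 0.742 UMIs per 10000). DESeq2 called neither (adjusted p = 0.12 and 0.62). *PTHLH*, *EBF4*, *RCAN2* and *CXCL3* were not called by edgeR against the *TM4SF1*-zero cells, while *PRAG1*, *RND1* and *CXCL2* (higher in cow 2 alone) were called higher.

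**Figure D5:**
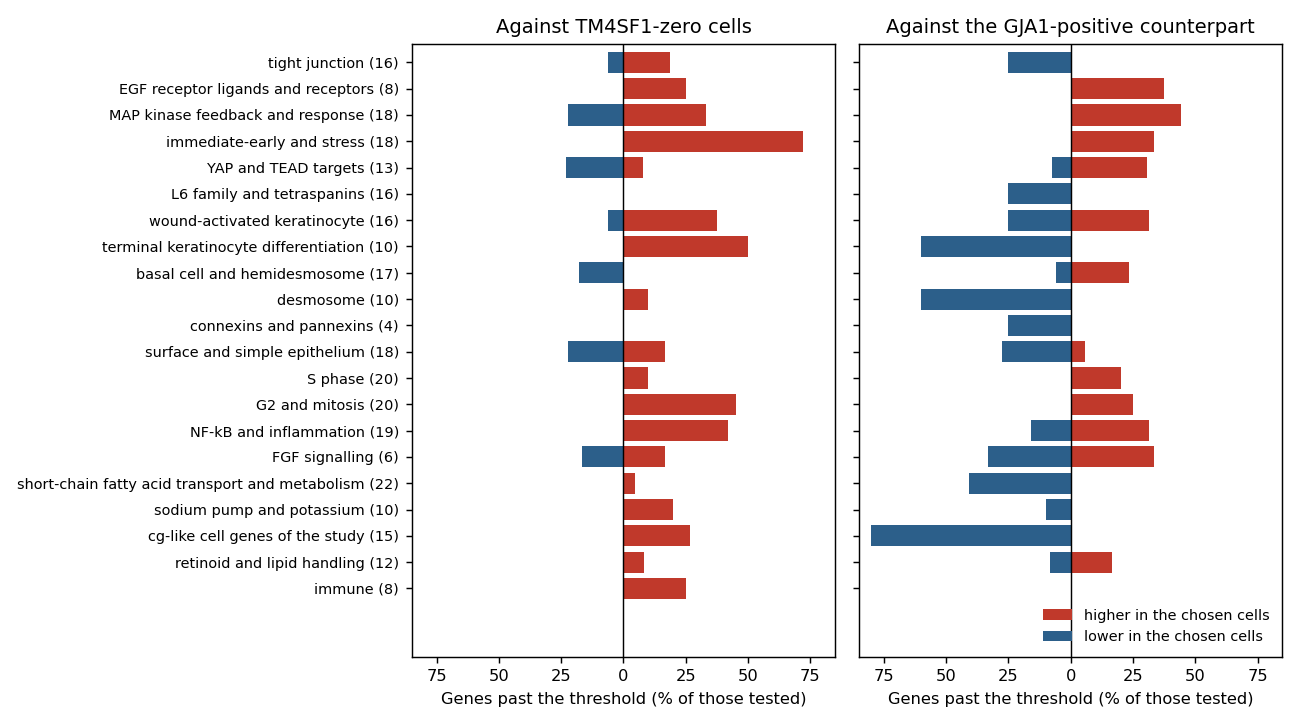
Share of the tested genes of each list (%; number tested in brackets) called higher or lower in the chosen cells, against *TM4SF1*-zero cells (left) and against the *GJA1*+ counterpart (right); lists with under 4 tested genes are not drawn. Immediate-early genes were higher in 13 of 18 on the left, and the study's channel-gap-like genes were lower in 12 of 15 on the right.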

How the data were processed

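The authors aligned reads with Cell Ranger 3.1.0 to a cow assembly, filtered cells and ran a doublet caller. The deposited matrix holds UMI counts as whole numbers for 20728 cells. The authors also deposited natural log values of the same cells, with gene names in the same row order. The names were used after these values matched ln(1 + 10000 × count / total) within 1e-06 in all 19533 named rows. The other deposited lists hold barcodes and gene names; the barcode suffix, matched to the sample titles, gave the cow. Columns of cells that match no sample numbered 0. Coordinates were not used.

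UMI counts were summed per cow and class (12 sums, from 422061 to 56493812 UMIs) and fitted with edgeR 4.0.16 (TMM, filterByExpr, class plus cow) over 10380 genes. The 4 rule genes were left out, and *AREG* and *FGFBP1* were not counted. Sums of the same cow come from the same animal. Their deviations from the class mean correlated at 0.20 to 0.86, and the mean between sums of different cows and classes was -0.21. Taking deviations from a mean of 3 cows pulls that last value below 0, so it is no separate evidence of pairing. DESeq2 1.42.0 and the other settings were alternatives. The procedure was tested on simulated counts. With the cow as a block, the p-values rest on the spread left after class and cow, estimated over all classes and 3 animals. They do not measure the spread in level between animals. Sums with more UMIs weigh more, so cow 2 weighs most in the chosen cells. A gene could be called although the cows went different ways, as *CCL20* and *CXCL2* were. Named genes were, in each comparison and direction, the 12 largest called differences that moved the same way in all cows, with a symbol and at least 100 UMIs in the higher class, up to 4 called genes of each of 25 lists, and the naming genes with *SLC16A1*, *KRT5* and *KRT14*; some genes the rule named are not reported here. Genes named beside list counts come from the lists. The cells and lists were chosen with earlier results of these data known. Column totals fix the precision by counting error only.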

Additional observations from a re-analysis of the deposited data

How the results depend on the processing

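Counts against *TM4SF1*-zero cells (557 higher, 442 lower) became 340 and 167 with DESeq2, 161 and 23 with depth-matched cells, 197 and 117 against *TM4SF1*-zero cells with *CLDN4*, and 148 and 122 with a log2 threshold of 1. With only the 2 classes compared, 268 were lower. Leaving out a cow gave 100 to 617 higher and 12 to 429 lower. Counts against the *GJA1*+ counterpart (555 and 644) became 175 and 296 with only the 2 classes, 330 higher with depth-matched cells, 369 lower in cells of 5000 to 20000 UMIs, 837 higher with 2 or more *TM4SF1* UMIs, and 237 and 228 with a log2 threshold of 1. Leaving out a cow gave 193 to 509 higher and 244 to 546 lower. Without the cow as a replicate block, edgeR called 0 higher and 0 lower genes against *TM4SF1*-zero cells (519 at an unadjusted p under 0.05) and 8 and 25 against the counterpart. Directions turned against *TM4SF1*-zero cells for *CXCL2* (-0.10), *CCL20* (-1.18) and *GRO1* (-0.0025) with DESeq2, and without cow 2 for *THBS1* (from -1.06 to 0.22 over the cows left out), *ATP6V1B1* (-0.41 to 1.71) and *GRO1* (-1.69), and for *PLK1* (-0.17) without cells holding *MKI67* or *TOP2A*. Against the counterpart *CLDN3* turned without cow 2 (-0.99 to 0.11 over the cows left out). Apart from the fewer animals or cells in these settings, the cause was not tested. Library size alone and no filter on low counts kept all 4 counts within 1.5 times.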

Other observations

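The values that follow compare further gene lists with the *TM4SF1*-zero cells, where 5.37% of all genes were called higher and 4.26% lower. *CYP26A1*, which breaks down retinoic acid, was the only one of 12 tested retinoid and lipid genes that passed, a count near the 5.37% over all genes. It stood at 2.00, 3.62 and 2.46 UMIs per 10000 in cows 1, 2 and 3 against 1.16, 2.04 and 1.56 (log2 difference 0.78 ± 0.10, edgeR adjusted p = 3.3e-05). It was higher in each cow and also called without cow 2 (adjusted p = 0.0094). *EHF*, an epithelial transcription factor, stood at 0.921, 0.829 and 0.310 against 0.525, 0.340 and 0.272 (0.99 ± 0.14, adjusted p = 4.4e-05), in a list of surface and simple epithelium genes with 3 higher and 4 lower of 18. Without cow 2 *EHF* was not called (0.70, adjusted p = 0.17), and of the list edgeR called 0 of 16 (3 higher and 1 lower at an unadjusted p under 0.05). With depth-matched cells 1 was higher and 0 lower, and DESeq2 called 2 and 1. Of 16 wound-activated genes, 6 were higher and 1 lower, and without cow 2 edgeR called 0 of 13 (2 higher and 3 lower at an unadjusted p under 0.05). Those higher included *KRT6B*, *PLAU*, *SERPINB2*, *KRT6A* and *PLAUR*. The count lower, of *SNAI2* alone, was near the 4.26% over all genes. In depth-matched cells edgeR called *PLAU* (adjusted p = 0.0025) but not *KRT6B* (0.18) or *SERPINB2* (0.29). Of 10 genes of sodium and potassium transport, 2 were higher and 0 lower, and with depth-matched cells edgeR called 0 of 8 (2 higher at an unadjusted p under 0.05). Of 13 YAP and TEAD targets, *AMOTL2* was called higher and *AJUBA*, *PTPN14* and *CRIM1* lower, so the count higher was near the 5.37% over all genes. Again 0 were called with DESeq2 (1 higher and 3 lower at an unadjusted p under 0.05), with depth-matched cells (1 and 0) or without cow 2 (1 and 1). Of 6 FGF signalling genes, *SDC4* was called higher and *FGFR2* lower. *SDC4* was not called by DESeq2 (adjusted p = 0.16) or without cow 2, where its log2 difference was 0.11 (adjusted p = 0.99), and *FGFR2* was not called with depth-matched cells (-0.38, adjusted p = 0.17) or without cow 2 (adjusted p = 0.13). Of 16 other genes of the L6 family, that of *TM4SF1*, and of the tetraspanins, edgeR and DESeq2 called 0 (edgeR had 2 higher and 4 lower at an unadjusted p under 0.05). Of 4 connexins and pannexins, both called 0 (2 higher in edgeR at an unadjusted p under 0.05). Of the study's 15 channel-gap-like genes, *ATP6V1B1*, *BST1*, *TMEM79* and *FABP5* were called higher, and with depth-matched cells edgeR called 0 (3 higher and 1 lower at an unadjusted p under 0.05). *ATP6V1B1* was higher in cow 2 alone, at 0.129, 0.119 and 0 UMIs per 10000 against 0.160, 0.0333 and 0.0400. DESeq2 did not call it (adjusted p = 0.73). Of 10 desmosome genes edgeR called 1 higher, *PKP1*, against 5.37% over all genes, and the call was lost with DESeq2 (adjusted p = 0.14), with depth-matched cells (adjusted p = 0.34) and without cow 2 (adjusted p = 0.73). Of 8 immune genes, *CD68* and *CD3D* were called, on 92 and 6 UMIs in the chosen cells, and neither was without cow 2 (adjusted p = 0.44 and 0.30). *CD3D* passed the filter on low counts through the chosen cells and the *GJA1*+ counterpart, not the *TM4SF1*-zero cells.

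The 532 cells with *DLK2* but no *GJA1* that met the same *TM4SF1* and *CLDN4* thresholds were also mostly from cow 2 (34, 496 and 2 cells by cow). In cows 1 and 2 they had 1.41 and 2.52 UMIs per 10000 of *FGFBP1*, against 2.17 and 4.69 in the *TM4SF1*+ *CLDN4*+ cells lacking *DLK2*, and 0.899 and 0.384 of *AREG*, against 0.679 and 0.432. No test was made of these values.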
